A study of Mus musculus with 23 samples.

Results

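The livers compared here came from mouse pups whose birth dam had metabolic syndrome and which differed in the dam that nursed them. Of the 23 libraries in the series, 11 entered the comparison, and they were chosen by their group label alone. The 5 MetS-MetS pups were born to and nursed by dams with metabolic syndrome, and the 6 MetS-Ct pups were born to such dams and nursed by control dams. All dams were C57Bl/6J females. From the age of 3 weeks they had eaten either a control diet with 10% fat or a high-fat diet with 45% fat, for a period of 7 weeks or of 17 weeks, and were mated to males on the control diet. Litters were cut to 5 pups and moved to a foster dam on the day of birth, so every pup was fostered. Liver was taken on postnatal day 21, except in MetS-Ct_97, which is labelled day 22. The labels give neither the litter nor the length of the dam's diet for a given pup. The p-values therefore measure the spread between these animals, and shared litters would make them too small. The 2 other groups, Ct-Ct and Ct-MetS with 6 pups each, had a control birth dam and are used as the reference for the same nursing contrast without prenatal exposure.

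As background, milk is a high-fat food, and the suckling liver burns fatty acids in mitochondria and peroxisomes and makes ketone bodies under the nuclear receptor PPARα. Around weaning the liver turns to making fatty acids from carbohydrate under SREBP-1c and ChREBP. The fetal liver is also a site of red cell formation, which moves to bone marrow and spleen around birth, and GATA1 and KLF1 drive the genes of globins, haem synthesis and the red cell membrane.

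Total counts ran from 23996005 to 32503461 in the MetS-Ct libraries and from 16876460 to 29184628 in the MetS-MetS libraries, with the lowest in MetS-MetS_110. This library stood apart from all others in transcripts of other tissues. The summed level of 22 skeletal muscle genes was 1756 CPM in it (CPM, counts per 10 to the power of 6 of the scaled library total), 11.05 to 16.2 in the other MetS-MetS libraries and 11.4 to 17.7 in MetS-Ct. For 19 squamous epithelium genes the sum was 1101 CPM against 191 to 273 and 173 to 236. Calls are therefore given with MetS-MetS_110 and without it. The hepatocyte markers summed to 151264 to 169110 CPM in MetS-MetS and 137353 to 164705 in MetS-Ct, and no library lacked any of them.

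**Figure D1:**
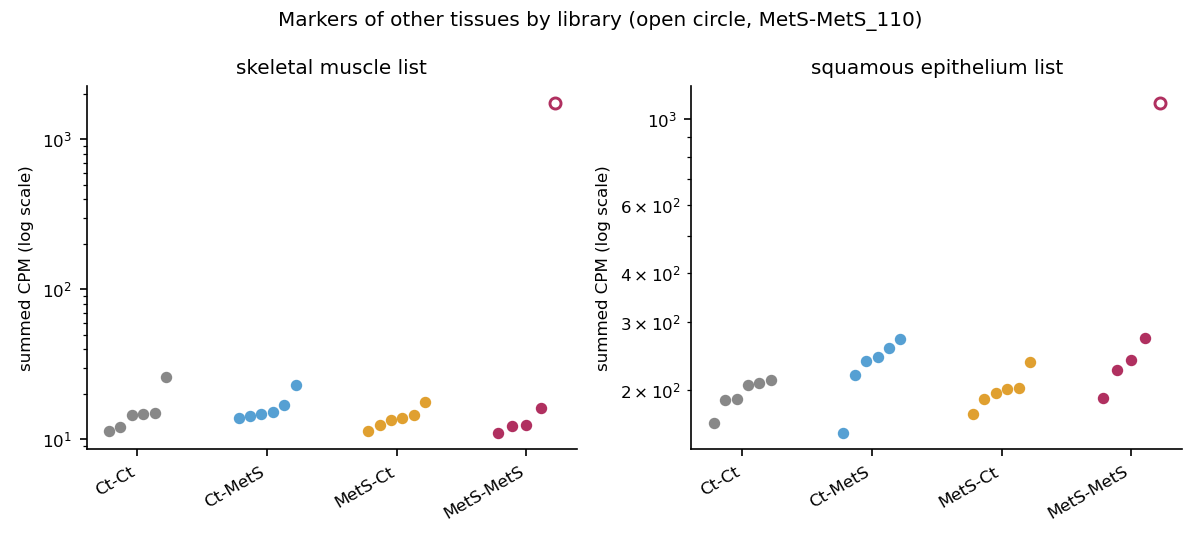
Summed CPM (log axis) of the skeletal muscle list (left) and the squamous epithelium list (right), 1 point per library in the 4 groups; the open circle is MetS-MetS_110. It lies at 1756 and 1101 CPM, above every other library.

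A MetS foster dam went with higher levels of a set of red cell genes, higher Ucp2 and lower Smoc2 in pups that had been exposed before birth. Of 14466 genes tested with edgeR, 60 (0.415%) passed an adjusted p of 0.05, 37 higher (0.256%) and 23 lower (0.159%) in MetS-MetS. Without MetS-MetS_110 the test called 10 genes (0.0691%), 9 higher (0.0622%) and 1 lower (0.00691%), and all 10 were among the 60. Among the 9 were Slc4a1, Trim10, Ermap, Hemgn, Rhag, Kel, Ucp2 and Plxnc1, and the lower gene was Smoc2. Another 37 of the 60 had an unadjusted p under 0.05 without that library, so that 47 did in all, 24 higher and 23 lower. Of all genes, 4.81% and 5.3% did in those directions. The 60 were selected in a fit that held the same remaining libraries, so these shares are no fair reference for them. For the remaining 13 the unadjusted p without MetS-MetS_110 was at or above 0.05. Of the 60, 10 belonged to the muscle and squamous lists, which had no call without MetS-MetS_110. Leaving out 1 library at a time gave 5 calls (without MetS-Ct_70) to 158 calls (without MetS-MetS_39). Slc4a1, Hemgn, Ermap, Ucp2 and Trim10 were called in all 11 of these fits. Of the 60 calls, 55 were lost without MetS-Ct_70, 50 without MetS-Ct_97 and 50 without MetS-MetS_110. Without MetS-Ct_149, MetS-Ct_85 and MetS-Ct_53 the losses were 44, 43 and 41, and without any other library 5 to 23.

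Values below are CPM. Those of the MetS-MetS pups are written in the order MetS-MetS_109, MetS-MetS_110, MetS-MetS_154, MetS-MetS_157 and MetS-MetS_39, and those of the 6 MetS-Ct pups as the lowest, the median and the highest. Fold changes carry the standard error of the log2 value. Where a second adjusted p follows a semicolon, it is the one without MetS-MetS_110.

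The red cell membrane genes held 8 of the 60 calls, all higher, among 19 tested members. Of all genes, 0.256% were called higher. Of 19 tested members, 15 were higher at an unadjusted p under 0.05 against a background of 7.05% of all genes in that direction, and none was lower at that level. In 9 of them every MetS-MetS library lay above every MetS-Ct library, against 1.04% of all genes. No member lay apart in the lower direction (0.726% of all genes did). Without MetS-MetS_110 there were also 9 apart and higher, against 1.27% of all genes. The median log2 difference was 1.95 (1.85 without MetS-MetS_110), against −0.00034 over all genes. This list and the others used here were chosen with earlier results of these data known. The shares of all genes given beside list counts therefore describe those counts and do not test them. The summed level of the list overlapped, at 391 to 441 CPM in MetS-MetS and 315 to 426 in MetS-Ct. A large part of it was Epb41, at 161 to 233 CPM in MetS-MetS and 135 to 255 in MetS-Ct. The called members had far lower levels. Without MetS-MetS_110, 6 of the 8 remained called, against 0.0622% of all genes called higher. In the fits that left out 1 library, the number of list members called ran from 3 (without MetS-Ct_70) to 10. Without MetS-Ct_97 it was 5. In whole liver, more red cells or precursors in MetS-MetS and more of these RNAs per cell cannot be told apart.

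Slc4a1 encodes band 3, which exchanges chloride for bicarbonate across the red cell membrane. The gene was at 8.20, 6.74, 5.74, 12.4 and 9.45 CPM in MetS-MetS, and at 1.09, 1.62 and 3.20 in MetS-Ct. The lowest exposed pup was above the highest control-nursed one. Slc4a1 rose 4.31-fold (log2 2.11 ± 0.31, adjusted p = 0.0106; log2 2.18, adjusted p = 0.0105 without MetS-MetS_110).

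Ermap and Kel carry blood group antigens on the erythroid surface. Ermap was at 1.56, 1.30, 1.08, 3.23 and 1.66 CPM against 0.155, 0.375 and 0.755, and it rose 4.44-fold (log2 2.15 ± 0.36, adjusted p = 0.0149). Kel was at 1.33, 0.866, 0.578, 1.86 and 1.48 CPM against 0.0704, 0.224 and 0.392, and it rose 5.36-fold (log2 2.42 ± 0.46, adjusted p = 0.0275). Neither gene's groups overlapped, and both had their highest value in MetS-MetS_157. Both remained called without MetS-MetS_110, with adjusted p of 0.0150 and 0.0367. The call of Kel was lost without MetS-Ct_149, MetS-Ct_53, MetS-Ct_70 or MetS-Ct_97.

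Rhag is the Rh-associated glycoprotein that Rh proteins need to reach the membrane. Rhag was at 0.711, 0.433, 0.361, 1.48 and 1.21 CPM against 0.0352, 0.0591 and 0.193, which is 8.30-fold higher (log2 3.05 ± 0.53, adjusted p = 0.0149). The groups did not overlap. These values rest on few reads, 7 to 27 counts per MetS-MetS library and 1 to 6 per MetS-Ct library. The mean over all 23 libraries was 10.7, just above the 10 needed for testing, and Ct-Ct libraries had 0 to 9. Rhag thus entered the test through its level in the MetS-nursed groups. Kel, Hemgn and Epb42 also had low mean counts, at 16.2, 15.4 and 13.8. With no count filter Rhag, Kel and Hemgn stayed called and Epb42 did not. Without MetS-Ct_70 the call of Rhag was lost, with an adjusted p of 0.0538, and without MetS-MetS_110 it was kept (adjusted p = 0.0150).

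Trim10, Ank1 and Epb42 were also called. Trim10, a tripartite motif protein needed for terminal erythroid differentiation, was at 1.09, 1.24, 1.26, 2.30 and 1.34 CPM against 0.232, 0.317 and 0.451, 4.22-fold higher (log2 2.08 ± 0.33, adjusted p = 0.0140; 0.0150). Ank1, the ankyrin that ties band 3 to spectrin, was at 1.28, 2.97, 0.794, 3.83 and 2.06 CPM against 0.296, 0.500 and 1.03. Its groups overlapped through MetS-MetS_154, and the log2 change was 1.95 ± 0.36 (adjusted p = 0.0224; 0.0725 without MetS-MetS_110). Epb42, protein 4.2 of the same complex, had 10 to 29 counts per MetS-MetS library and 0 to 13 per MetS-Ct library (log2 2.54 ± 0.53, adjusted p = 0.0393; 0.109 without MetS-MetS_110). Tmod1, a tropomodulin that is also made in muscle, depended on that library: it stood at 7.49 CPM there and at 0.379 to 0.929 in the other MetS-MetS pups, and its log2 difference went from 2.07 to 0.33 without it.

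**Figure D2:**
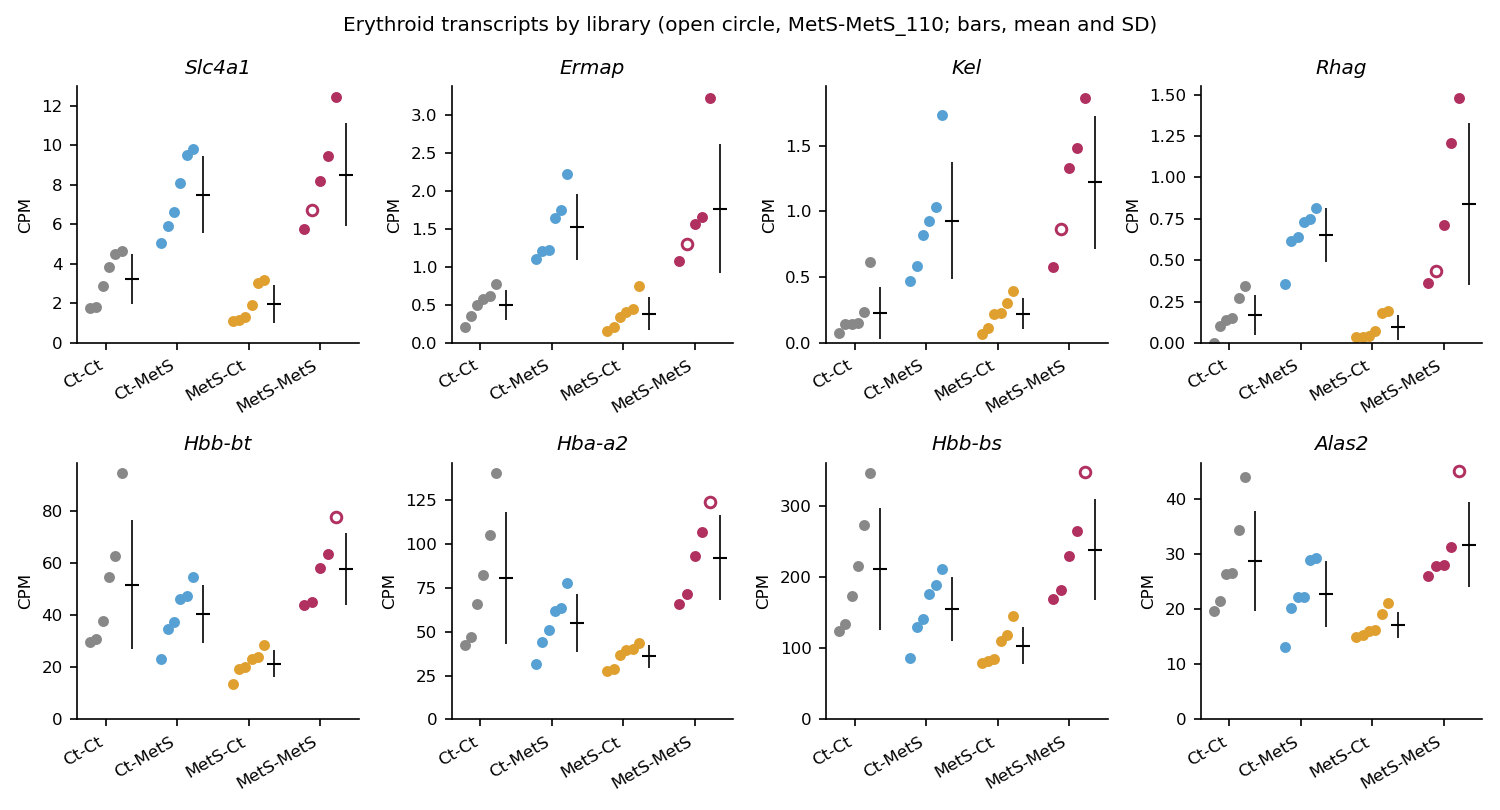
CPM of 8 red cell genes, 1 point per library in the 4 groups, with bars for the mean and SD; the open circle is MetS-MetS_110. All 8 genes have their lowest mean in MetS-Ct; Slc4a1, Ermap, Kel and Rhag have a higher mean in Ct-MetS than in Ct-Ct, and the 3 globins and Alas2 a lower one.

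Sequences upstream of the erythroid genes that were called without MetS-MetS_110 are shown because those genes moved together. RefSeq windows of 300 bases, 250 before and 50 after the start, were at hand for 5 of the 7 genes (build GRCm38.p6). All 5 windows held AGATAA or TGATAA, the core of the GATA site, on either strand, as did 18.6% of all 32851 windows. CACCC, the core of the KLF1 site, was in 4 of the 5 and in 57.5% of all. The 250 bases upstream of the start are printed in the gene's own direction, with AGATAA or TGATAA on either strand in capitals: Trim10 chr17:36869324-36869573 (plus strand), Ermap chr4:119189996-119190245 (minus strand), Hemgn chr4:46404184-46404433 (minus strand), Rhag chr17:40810899-40811148 (plus strand) and Kel chr6:41704326-41704575 (minus strand).

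Trim10: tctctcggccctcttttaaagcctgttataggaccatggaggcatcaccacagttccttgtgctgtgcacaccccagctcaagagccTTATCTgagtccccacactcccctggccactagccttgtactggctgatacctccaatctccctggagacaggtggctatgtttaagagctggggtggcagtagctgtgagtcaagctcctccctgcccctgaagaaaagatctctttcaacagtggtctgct
Ermap: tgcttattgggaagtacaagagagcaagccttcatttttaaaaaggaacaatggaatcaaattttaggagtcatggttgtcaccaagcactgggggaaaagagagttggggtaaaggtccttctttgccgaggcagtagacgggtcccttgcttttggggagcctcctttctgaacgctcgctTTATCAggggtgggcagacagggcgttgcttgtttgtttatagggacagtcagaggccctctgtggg
Hemgn: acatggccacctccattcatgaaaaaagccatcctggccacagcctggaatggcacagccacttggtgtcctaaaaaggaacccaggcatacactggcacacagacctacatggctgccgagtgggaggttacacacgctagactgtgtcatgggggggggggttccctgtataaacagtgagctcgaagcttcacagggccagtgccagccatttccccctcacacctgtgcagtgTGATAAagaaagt
Rhag: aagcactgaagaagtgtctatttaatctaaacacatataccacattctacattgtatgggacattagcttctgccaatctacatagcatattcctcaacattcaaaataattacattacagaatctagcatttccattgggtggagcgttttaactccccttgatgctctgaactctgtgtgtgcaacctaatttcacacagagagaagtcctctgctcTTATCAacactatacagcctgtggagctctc
Kel: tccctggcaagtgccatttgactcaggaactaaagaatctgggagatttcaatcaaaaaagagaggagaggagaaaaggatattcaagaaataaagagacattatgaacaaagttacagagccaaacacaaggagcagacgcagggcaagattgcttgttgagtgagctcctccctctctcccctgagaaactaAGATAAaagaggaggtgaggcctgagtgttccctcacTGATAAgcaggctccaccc

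The match lies 163 bases before the start in Trim10, 67 in Ermap, 13 in Hemgn and 31 in Rhag. In Kel there were 2, at 56 and 19 bases before the start. Hemgn had a further match 29 bases after the start, which is not printed. Among all windows of the tested members, 6 of 15 windows of the red cell membrane list (40%) and 11 of 23 of the globin, haem and erythroid factor list (47.8%) held the GATA letters. A match describes the letters in the window and does not show binding.

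Of 24 tested genes for globins, haem synthesis and erythroid factors, 5 rose (0.256% of all genes did): Hemgn and the 4 adult globin genes. Hemgn alone remained called without MetS-MetS_110, and the list likewise had 1 call without MetS-Ct_149, MetS-Ct_53, MetS-Ct_70, MetS-Ct_85 or MetS-Ct_97 and 3 without MetS-Ct_120 or MetS-MetS_154. Hemgn, a nuclear protein of haematopoietic cells, was at 0.948, 0.433, 1.01, 2.30 and 1.93 CPM against 0.0387, 0.194 and 0.302, with no overlap, and rose 7.20-fold (log2 2.85 ± 0.49, adjusted p = 0.0149; 0.0105 without MetS-MetS_110). Over the list the median log2 difference was 0.21, and 10 members were higher and none lower at an unadjusted p under 0.05, against 7.05% and 7.04% of all genes (9 higher without MetS-MetS_110, against 4.81%).

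The globin genes had a smaller fold. Hbb-bt was at 44.0, 77.5, 57.9, 45.1 and 63.6 CPM against 13.5, 21.5 and 28.5 (2.69-fold, log2 1.43 ± 0.27, adjusted p = 0.0293). Hba-a2 was at 71.2, 124, 93.0, 65.9 and 106 CPM against 27.7, 38.0 and 43.6 (2.56-fold, adjusted p = 0.0363). The groups did not overlap, and MetS-MetS_110 was the highest library for both. Hbb-bs and Hba-a1 were 2.30-fold and 2.40-fold higher, each with an adjusted p of 0.0473. Without MetS-MetS_110 all 4 folds shrank little (log2 1.30, 1.23, 1.03 and 1.15 in the order given), but the adjusted p rose to between 0.0900 and 0.183. The 2 genes of each globin pair are near-identical copies, so how their reads were divided is uncertain. Alas2, the first enzyme of haem synthesis in erythroid cells, was at 27.8, 44.9, 31.3, 27.99 and 26.03 CPM against 15.0, 16.2 and 21.0. These groups did not overlap, but the test was missed (log2 0.88 ± 0.20, adjusted p = 0.0536; 0.247). Klf1 itself was at log2 −0.36 ± 0.24 (adjusted p = 0.520; 0.720), with overlapping groups.

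The same nursing contrast in pups of control dams, Ct-MetS against Ct-Ct, shares no library with this one. For the red cell membrane list 16 of 19 members were higher in both contrasts, against 30.1% of all genes. Slc4a1 ranged from 5.74 to 12.4 CPM in MetS-MetS and from 5.05 to 9.81 in Ct-MetS, and from 1.09 to 3.20 in MetS-Ct and from 1.76 to 4.65 in Ct-Ct. Both MetS-nursed groups thus lay above both control-nursed groups, and the log2 difference with a control birth dam was 1.21 ± 0.29. The globins had a negative log2 difference with a control birth dam. Hbb-bt averaged 51.6 ± 24.7 CPM (SD) in Ct-Ct and 40.5 ± 11.2 in Ct-MetS, a log2 difference of −0.35 ± 0.26, and Hba-a2 averaged 80.4 ± 37.4 and 54.9 ± 16.3. In all 6 MetS-Ct pups Hbb-bt was below the lowest Ct-Ct pup, at 28.5 CPM or less against 29.8. The MetS-MetS pups, at 44.0 to 77.5 CPM, lay within the Ct-Ct range of 29.8 to 94.4. Of the 24 genes, 11 were higher here and lower in the control-birth contrast, against 19.8% of all genes.

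The difference between both nursing effects was tested as an interaction. edgeR called no gene, with 787 of 14466 (5.44%) at an unadjusted p under 0.05, and limma-voom called none. DESeq2 called 4, and they were the 4 globin genes: log2 1.90 for Hba-a2 (adjusted p = 0.00258), 1.77 for Hba-a1 and for Hbb-bt (both 0.00856) and 1.64 for Hbb-bs (0.0159). edgeR's estimates were 1.91, 1.78, 1.78 and 1.64, each with an adjusted p of 0.424. The difference for the globins thus passed with 1 of 3 tools. Alas2 had a difference of 1.22 (unadjusted p = 0.000245, edgeR). For Slc4a1, Rhag or any other red cell membrane gene no tool called a difference between birth dams. Over all genes, 63.3% had the same sign in both contrasts. Of the 60 called genes 46 did (76.7%), and of the 10 called without MetS-MetS_110 all 10 did.

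**Figure D3:**
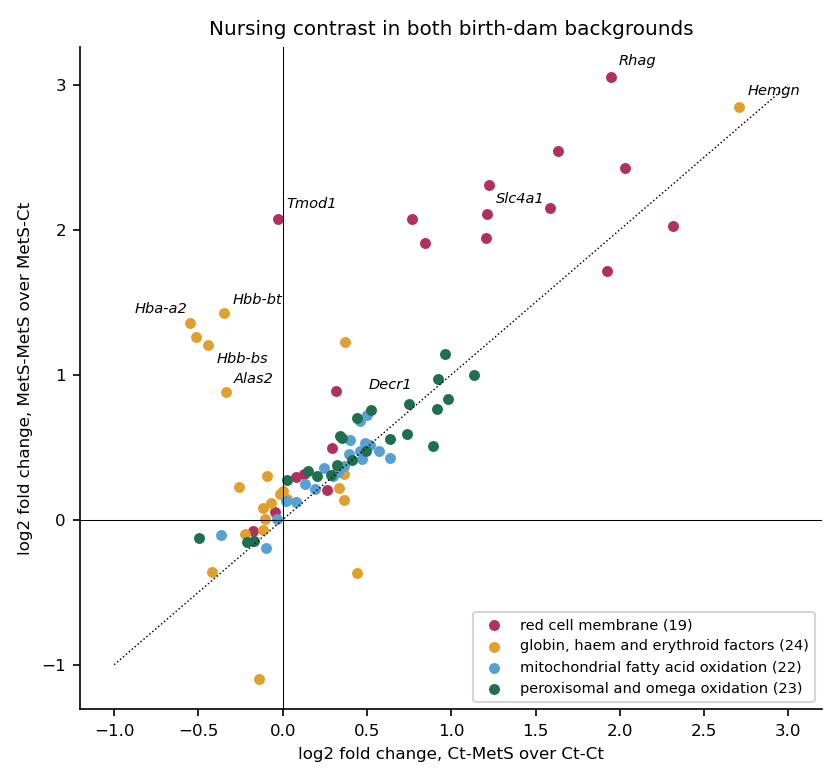
Log2 fold change of MetS-MetS over MetS-Ct (vertical) against that of Ct-MetS over Ct-Ct (horizontal) for the tested genes of 4 lists, 1 point per gene; the dotted line marks equal change. The red cell membrane genes lie to the upper right, the oxidation genes follow the line, and the globins and Alas2 lie to the left of 0 and above it.

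Among genes of fatty acid use, Ucp2 and Decr1 rose, and Decr1 was not called without MetS-MetS_110. Ucp2, the mitochondrial uncoupling protein that fatty acids induce, was at 51.1, 59.7, 59.4, 55.3 and 62.5 CPM against 33.002, 36.5 and 42.3. All 5 MetS-MetS values were above all MetS-Ct values, and Ucp2 rose 1.56-fold (log2 0.65 ± 0.11, adjusted p = 0.0140; 0.0273 without MetS-MetS_110). With a control birth dam the log2 difference was 0.74. Ucp2 was the 1 called gene of 25 tested PPARα targets and fasting response genes, against 0.256% of all genes called higher. Of the 25, 9 were higher and none lower at an unadjusted p under 0.05, against 7.05% and 7.04% of all genes. Without MetS-MetS_110, 11 were higher, against 4.81%. In both birth backgrounds 22 were higher, against 30.1% of all genes. Ucp2 is also made in macrophages, whose markers are given below, and their part in its change was not tested.

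Of the other PPARα targets, Fabp2, an intestinal-type fatty acid binding protein, was at 68.8, 70.4, 84.6, 98.1 and 74.8 CPM against 24.3, 36.8 and 57.7 (log2 0.99, adjusted p = 0.0611; 0.156). Vnn1, the pantetheinase, was at 37.4, 43.0, 79.1, 35.98 and 68.6 CPM against 7.32, 10.1 and 28.8 (log2 1.93, adjusted p = 0.0900; 0.193). Mgll, monoacylglycerol lipase, had a log2 difference of 0.78 (adjusted p = 0.0913; 0.244). In these 3 genes the groups did not overlap, but none passed the test. Of the 25 tested genes of the list, 5 were higher without overlap, against 1.04% of all genes. The fasting genes Pdk4 and Fgf21 were spread by 1 library: MetS-MetS_39 had 76.5 and 31.7 CPM, and the next highest MetS-MetS pup 14.8 and 9.50 (adjusted p = 0.568 and 0.563; 0.607 and 0.602).

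Decr1 was the 1 called gene of 22 of mitochondrial oxidation, against 0.256% of all genes called higher. It encodes the 2,4-dienoyl-CoA reductase that polyunsaturated fatty acids require, and it was at 194, 197, 232, 186 and 278 CPM against 119, 129.4 and 156.6 (1.60-fold, log2 0.68 ± 0.14, adjusted p = 0.0389; 0.0810 without MetS-MetS_110). The groups were apart, but the call was also lost without MetS-MetS_154, MetS-Ct_149, MetS-Ct_70, MetS-Ct_85 or MetS-Ct_97. Of the 22 tested genes 14 were higher at an unadjusted p under 0.05 and none lower, against 7.05% and 7.04% of all genes (15 higher without MetS-MetS_110, against 4.81%). The median log2 difference was 0.36, and 19 were higher in both birth backgrounds, against 30.1% of all genes. Hadha and Hadhb, the subunits of the trifunctional protein, had log2 differences of 0.33 and 0.55 (adjusted p = 0.138 and 0.114; 0.303 and 0.285). Cpt1a, which admits fatty acids to the mitochondrion, was at log2 0.43 (adjusted p = 0.310; 0.454).

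None of 23 peroxisomal and omega oxidation genes was called, though 13 were higher at an unadjusted p under 0.05 and none lower, against 7.05% and 7.04% of all genes (14 higher without MetS-MetS_110, against 4.81%). The median log2 difference was 0.55. Aldh3a2, the fatty aldehyde dehydrogenase, was at 349, 364, 434, 351 and 324 CPM against 156, 214 and 247, apart in all libraries (log2 0.80, adjusted p = 0.0708; 0.192). The carnitine octanoyltransferase Crot was at log2 0.83 (adjusted p = 0.153; 0.290). Among 7 ketogenesis genes, 5 were higher at that level, with and without MetS-MetS_110, and none passed the test. Bdh1, which makes 3-hydroxybutyrate, was at log2 0.64 (adjusted p = 0.0785; 0.275). Of the peroxisomal genes 20 and of the ketogenesis genes 6 were higher in both birth backgrounds, against 30.1% of all genes.

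**Figure D4:**
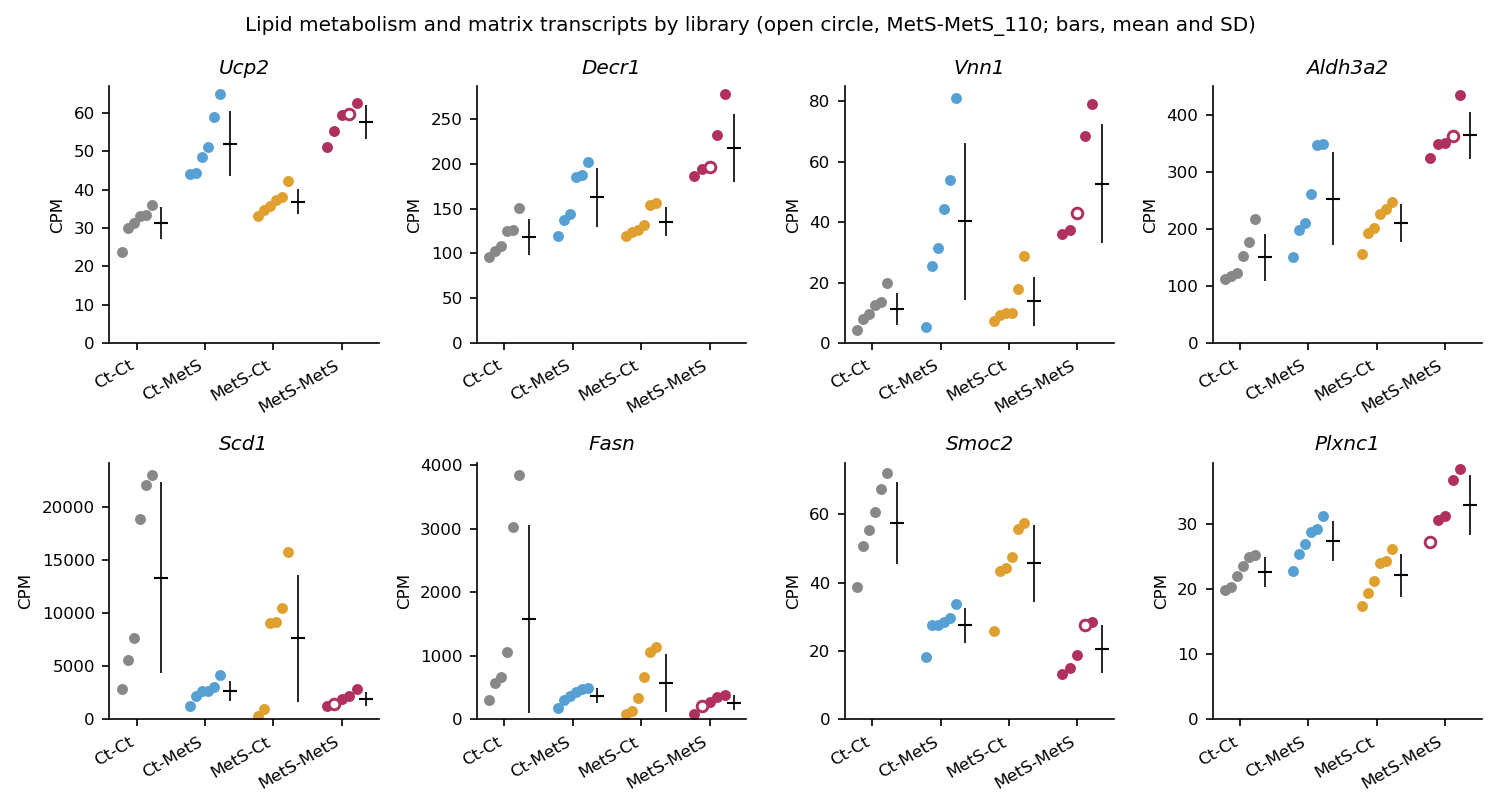
CPM of 8 genes, 1 point per library in the 4 groups, with bars for the mean and SD; the open circle is MetS-MetS_110. Ucp2, Decr1, Vnn1 and Aldh3a2 are higher in every MetS-MetS library than in any MetS-Ct library, Smoc2 is mostly lower, and Scd1 and Fasn are widely spread in MetS-Ct.

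No gene of fatty acid synthesis was called, and the MetS-Ct pups were widely spread. Scd1, the desaturase that makes oleate, was at 1266, 1406, 2193, 2880 and 1943 CPM in MetS-MetS, and at 318, 9128 and 15745 in MetS-Ct. MetS-Ct_70 (318) and MetS-Ct_97 (940) lay below every MetS-MetS pup and the rest above, and the log2 difference was −1.98 ± 0.70 (adjusted p = 0.223; 0.420). Pnpla3, a triglyceride lipase under SREBP-1c, was at 3.51, 2.97, 2.31, 3.61 and 0.717 CPM against 2.75, 8.07 and 43.9 (log2 −2.47, adjusted p = 0.176; 0.371), and Fasn, fatty acid synthase, was at log2 −1.12 (adjusted p = 0.455; 0.634). Of 29 tested genes 7 were lower and 1, Elovl3, higher at an unadjusted p under 0.05, against 7.04% and 7.05% of all genes. The median log2 difference was −0.45. Without MetS-MetS_110, 5 were lower and 1 higher, against 5.3% and 4.81%, and the median was −0.52. With a control birth dam the median was −1.16. In both birth backgrounds 19 were lower, against 33.2% of all genes. The 1 called gene of 18 of glucose use, against 0.159% of all genes called lower, was Gckr, a regulator of hepatic sugar use. It was at 236, 226, 276, 242 and 188 CPM against 288, 332 and 393, apart in all libraries (log2 −0.52, adjusted p = 0.0431; 0.140 without MetS-MetS_110). Srebf1 was at log2 0.02 (−0.09 without MetS-MetS_110, adjusted p = 0.980; 0.956).

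Smoc2, a matricellular protein of the SPARC family made by stellate cells and fibroblasts, was the lower gene called without MetS-MetS_110. It was at 18.9, 27.6, 15.2, 28.4 and 13.4 CPM against 25.9, 45.9 and 57.4. MetS-Ct_53, at 25.9, lay within the MetS-MetS range, and the other MetS-Ct pups lay above it. Smoc2 fell 2.22-fold (log2 −1.15 ± 0.22, adjusted p = 0.0293; log2 −1.27, adjusted p = 0.0300 without MetS-MetS_110), with log2 −1.06 under a control birth dam. It was the 1 called gene of 41 of collagen and matrix, against 0.159% of all genes called lower (0.00691% without MetS-MetS_110). The 18 stellate cell genes had no call, and their summed level was 739 to 864 CPM in MetS-MetS and 765 to 939 in MetS-Ct. Col1a1 was at log2 −0.13 and Tgfb1 at −0.03 (−0.29 and 0.02 without MetS-MetS_110), both with overlapping groups. Plxnc1, a semaphorin receptor, was at 30.6, 27.3, 38.4, 36.9 and 31.3 CPM against 17.4, 22.7 and 26.2, apart in all libraries, and it rose 1.49-fold (log2 0.57 ± 0.11, adjusted p = 0.0293; 0.0273 without MetS-MetS_110). The calls of Smoc2 and Plxnc1 were lost without MetS-Ct_149, MetS-Ct_70 or MetS-Ct_97, and that of Smoc2 also without MetS-Ct_85.

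Kupffer cells, the resident macrophages of liver, take up senescent red cells and express Ucp2. Their markers had no call among 25 genes. At an unadjusted p under 0.05, 5 were higher, against 7.05% of all genes (9 without MetS-MetS_110, against 4.81%), and none lower. Cd68 was at log2 0.43 (adjusted p = 0.153; 0.157) and Adgre1, which encodes F4/80, at 0.38 (adjusted p = 0.215; 0.311). The summed level was 1119 to 1572 CPM in MetS-MetS and 1139 to 1249 in MetS-Ct, and no marker was at 0 in any library. Of 22 lysosomal genes 7 were higher at an unadjusted p under 0.05, against 7.05% of all genes (7 without MetS-MetS_110, against 4.81%), and none was called. Among inflammation genes Il1rn, the interleukin 1 receptor antagonist, was at 8.58, 7.18, 10.9, 12.6 and 8.15 CPM against 1.37, 2.39 and 5.46. The groups were apart, but the test was missed (log2 1.69 ± 0.41, adjusted p = 0.0703; 0.156).

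Single genes of hepatocyte function were called in 3 other lists, and none of them without MetS-MetS_110. They were 1 of 31 drug metabolism genes, 1 of 23 bile acid genes and 1 of 16 iron genes. Of all genes, 0.256% were called higher and 0.159% lower. Cyp2c54, a cytochrome P450, was at 99.5, 53.9, 76.5, 63.6 and 65.7 CPM against 18.04, 19.6 and 28.7, apart in all libraries and 3.43-fold higher (adjusted p = 0.0363; 0.0638 without MetS-MetS_110). Slc51b, the beta subunit of the basolateral bile acid exporter, was at 0.948, 1.24, 0.578, 1.80 and 1.21 CPM against 2.29, 2.80 and 3.91, also apart, and fell 2.62-fold (adjusted p = 0.0367; 0.0900). Hamp2, a hepcidin paralog, was at 0.664, 0.371, 0.614, 3.94 and 0.627 CPM against 2.13, 26.8 and 91.9. All MetS-MetS libraries except MetS-MetS_157 were below the lowest MetS-Ct library, and the log2 change was −4.84 ± 1.05 (adjusted p = 0.0473; 0.156). Hamp, the hepcidin gene that limits iron export, shares sequence with Hamp2 and was at log2 −3.70 ± 1.31 (adjusted p = 0.223; 0.413). The bile salt and organic anion carrier Slco1a1 was at 107, 78.3, 95.0, 73.3 and 18.7 CPM against 0.645, 3.67 and 15.6. Its groups did not overlap, and the test was missed (14.2-fold, adjusted p = 0.0597; 0.156).

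**Figure D5:**
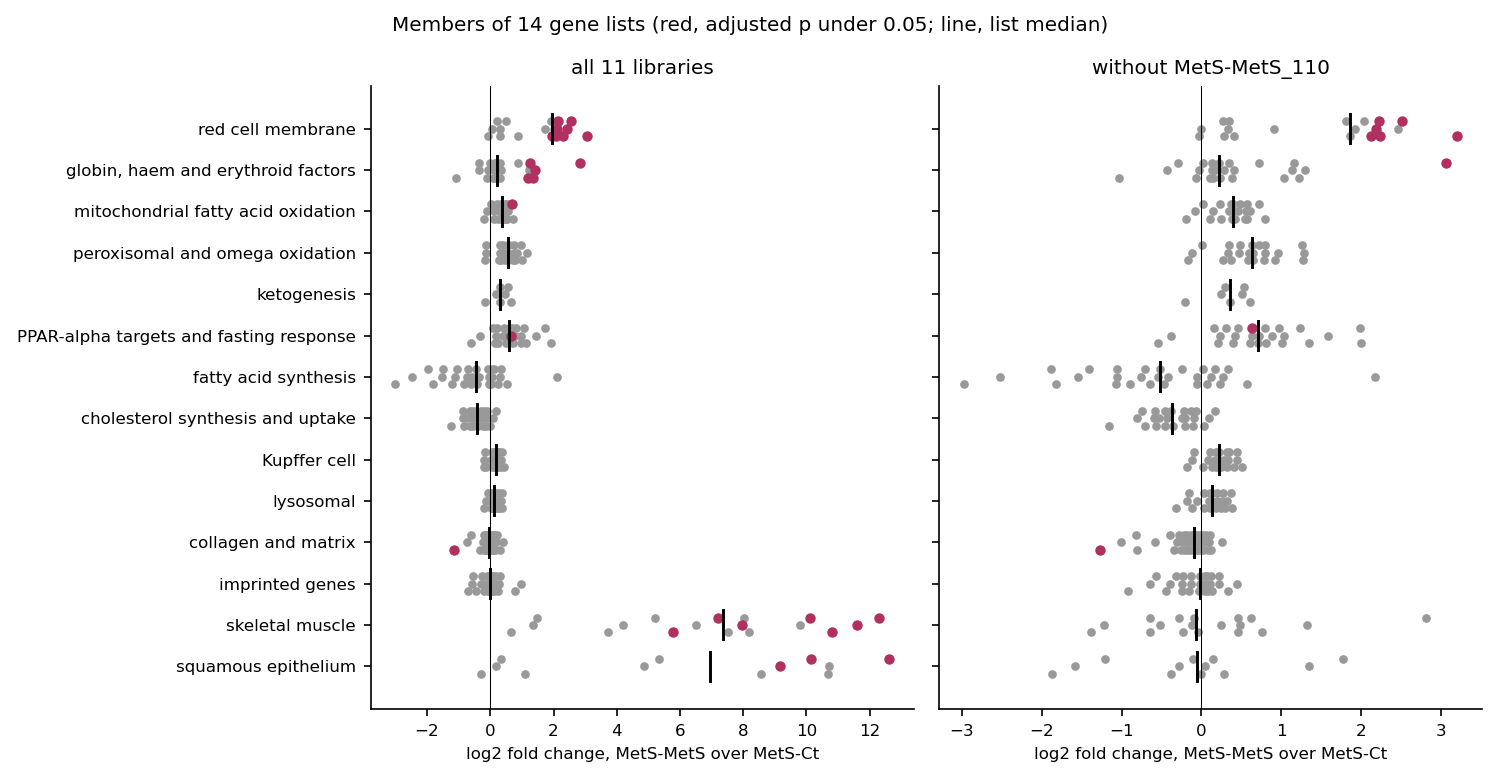
Log2 fold change of MetS-MetS over MetS-Ct for the tested genes of 14 lists, 1 point per gene, with all libraries (left) and without MetS-MetS_110 (right, on a narrower axis); red points passed the adjusted p and lines are list medians. The red cell membrane list lies to the right of 0 with a median of 1.95 and 1.85. The skeletal muscle and squamous medians of 7.35 and 6.95 go to −0.063 and −0.055 without MetS-MetS_110. Some members of these lists passed the count filter through MetS-MetS_110 alone, so their medians with all libraries were bound to be high. Krt13 had 5476 counts there and at most 1 in any other library, and Actn3 had 337 and at most 8.

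No imprinted gene of 29 tested was called, and 1 was lower at an unadjusted p under 0.05, against 7.04% of all genes, with a median of −0.016. Plagl1, the zinc finger gene said to head an imprinted network, was at log2 0.09, Igf2 at −0.02 and Cdkn1c at 0.07 (−0.03, −0.64 and 0.06 without MetS-MetS_110; none was called in either fit). H19 was at 287, 299, 287, 726 and 246 CPM against 157.5, 408 and 853, with overlapping groups (log2 −0.30, adjusted p = 0.879; 0.942). Dlk1 was below the count filter. Of 36 cell cycle genes none was called, and the median was 0.45.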

How the data were processed

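Poly(A) RNA from mouse liver was sequenced with a directional library kit, per the labels' protocols. The submitters' processing notes name FastQC, STAR, HTSeq and DESeq2; their versions, the genome build, the annotation and the counting strand are not given in any source used here, so reads of overlapping genes may be shared. The deposited table holds whole-number counts per gene for 23 libraries. Its name calls the counts normalised. Because they are whole numbers with totals that differ between libraries, they were treated as raw counts. Whether they had been scaled before is not known. Genes without a symbol held 0.0137% of counts. They kept their identifier, passed through the same filter and tests, and were left out only of the named genes.

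Genes with a mean count of at least 10 over the 23 libraries were tested (14466). edgeR 4.0.16 (R 4.3.3) was run with TMM scaling, 1 mean per group over all 23 libraries and robust quasi-likelihood; MetS-MetS minus MetS-Ct, and its difference from Ct-MetS minus Ct-Ct, were tested with Benjamini-Hochberg adjustment over all genes at 0.05. Standard errors were taken from the fold change and F. CPM use TMM-scaled library sizes. DESeq2 1.42.0 and limma-voom 3.58.1, other filters, thinned counts and leaving out each library were alternatives. The procedure was tested on simulated data. No 2 libraries of 1 group were duplicates (lowest chi-square per gene 16.9). All libraries had Xist and at most 1 count of Ddx3y.

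The comparison, the 44 gene lists and the tests were chosen with earlier results of these data known. Named genes are up to 12 called higher and 12 lower with and without MetS-MetS_110 with a mean count of at least 50, the 10 smallest p, the 5 smallest p of the difference, up to 5 per list by p, and a fixed set. Tmod1, Klf1, Alas2, Hbb-bs, Cpt1a and others named for their role or their spread were chosen after their values were seen. Some genes that the rule names are not reported here.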

Additional observations from a re-analysis of the deposited data

Results flagged for a closer look

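Single libraries far from the rest of their group were found in 19 of 162 checks of a gene or marker sum in a group. Each lay on the high side. Some of the genes checked had been named for their spread, so this count cannot be set against a chance rate. MetS-MetS_39 was the far library in 7 of the 19. Its Cyp4a14, a PPARα-induced omega-hydroxylase, was at 5930 CPM (nearest other MetS-MetS pup 1011), Pdk4 at 76.5 (14.8), Fgf21 at 31.7 (9.50), Pex11a at 171 (89.7), Creb3l3 at 469 (380), Elovl3 at 11.3 (3.09) and Arntl at 46.8 (10.9). MetS-MetS_157 was the highest of its group for Ermap at 3.23 CPM (1.66), Trim10 at 2.30 (1.34), Hamp2 at 3.94 (0.664), Hamp at 1.42 (0.358) and H19 at 726 (299). MetS-MetS_110 was the highest for Alas2 at 44.9 CPM (31.3), Tmod1 at 7.49 (0.929), the muscle sum at 1756 (16.2) and the squamous sum at 1101 (273).

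In the MetS-Ct group, MetS-Ct_53 was the highest for Agpat2 at 274 CPM (nearest other 171) and Cyp2c54 at 28.7 (20.5), and MetS-Ct_70 for Cyp7a1 at 764 (289).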

How the results depend on the processing

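The 60 calls depend on the processing. There were 65 with DESeq2's size factors in edgeR, 77 without robust dispersion, 136 with DESeq2, 30 with a mean count of at least 50, 20 with no filter, 25 with the 11 libraries alone, 22 with counts thinned to the smallest library and 10 with limma-voom. Leaving out 1 library gave 5 to 158: 5 without MetS-Ct_70, 17, 19, 20 and 10 without MetS-Ct_149, MetS-Ct_85, MetS-Ct_53 and MetS-Ct_97, 10 without MetS-MetS_110 and 158 without MetS-MetS_39. In these 11 fits 5 of the 60 genes were always called and 38 were called in at most 4. The 8 red cell membrane calls were 12 with DESeq2, 4 with limma-voom, 5 with the 11 libraries alone, 6 with thinned counts and 1 with a mean count of at least 50, since most of these genes have low counts. The difference between nursing effects gave 0 calls, apart from 4 with DESeq2, and 0 in every fit that left out 1 library. Fits that left out 1 library gave log2 −1.21 to 10.33 for Krt15, −0.52 to 11.12 for Myh8 and −1.58 to 10.48 for Krt4, each negative without MetS-MetS_110 alone. DESeq2's size factors moved the median log2 difference by −0.0036. No paired analysis was possible because the groups share no animal number.

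Low counts limit single genes: Rhag had 86 counts in all 5 MetS-MetS libraries together and 16 in the 6 MetS-Ct libraries. The mean total count was 22298680 in MetS-MetS and 27651612 in MetS-Ct.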

Other observations

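The clock gene Dbp set apart 1 pup in each group. Arntl, the clock activator BMAL1, was at 46.8 CPM in MetS-MetS_39 and 52.96 in MetS-Ct_53, and Dbp, a clock output that peaks in the opposite phase, was at 2.78 and 3.27 CPM in the same libraries, against 16.6 to 267 in the other pups. In the check of single libraries, Arntl was flagged in MetS-MetS_39 and not in MetS-Ct_53. MetS-MetS_39 was also the highest of its group for Pdk4, Fgf21 and Cyp4a14. The labels give no time of day, and its part in these values was not tested.

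Besides the globins, 2 genes were among the 5 with the smallest p for the difference between nursing effects. Adgrl3, an adhesion receptor (latrophilin), was at log2 −0.07 here and 0.93 with a control birth dam (difference −0.995 ± 0.22), and Ntng2, netrin G2, at 0.40 and −0.46 (difference 0.86), each with an edgeR adjusted p of 0.424. H19, the imprinted non-coding RNA, had a difference of −2.64 (edgeR unadjusted p = 0.0103, not called), with log2 2.34 under a control birth dam. Ct-MetS_169 weighed on that value, with H19 at 4551 CPM against 378 to 1474 in the other Ct-MetS pups.

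The called genes Vps37b, Serpina3g and Cd24a lay outside the groups described. Vps37b, an ESCRT subunit, was at 14.8, 15.2, 18.2, 16.3 and 19.3 CPM in MetS-MetS against 22.0 to 30.2 in MetS-Ct, without overlap (log2 −0.64, edgeR adjusted p = 0.0209; 0.0725 without MetS-MetS_110). Serpina3g, a serine protease inhibitor, was higher by log2 0.67 (adjusted p = 0.0393; 0.0630) and Cd24a, a glycoprotein of progenitor and immature blood cells, by 0.97 (adjusted p = 0.0328; 0.110).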
